A study of Homo sapiens with 29 samples.

Results

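The transcriptional response of BEAS-2B cells to 1 nM N-OH-PhIP was measured in 6 of the 29 arrays of a dose series, the 3 arrays titled with a concentration of 1 nM and the 3 arrays titled as DMSO controls. BEAS-2B cells are an immortalised line from human bronchial epithelium, and N-OH-PhIP is what N-hydroxylation makes of PhIP, which forms in meat on cooking and occurs in tobacco smoke. Per the labels, cultures at about 70% confluence in LHC-9 medium, which is serum-free, were exposed for 24 h. DMSO was present at 1% in every sample, so both groups carry the solvent. The labels set them apart by the compound, which does not exclude other differences between the cultures. Other arrays of the series held 0.1 nM (3 arrays), 0.5 nM (2 arrays), 5 nM (3 arrays) and 10 nM (3 arrays), with which 1 nM was also compared, and 4 doses of 50 to 1000 nM. The labels' protocol names 0.5 nM as the lowest of the 9 doses, whereas array titles go down to 0.1 nM and were followed here. Cultures were made in triplicate per the labels, all from 1 cell line, so the p-values measure the spread between cultures of that line.

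Heterocyclic amines become reactive towards DNA after N-hydroxylation and esterification, and bulky adducts of this kind are removed by nucleotide excision repair and can activate p53. Immediate early genes such as FOS, JUN and EGR1 are transcribed within minutes of growth factor, serum or stress signals through the ERK, SRF and CREB pathways, without new protein synthesis. In epithelial cultures their steady level also follows the growth factors of the medium, cell density and attachment, with YAP and WWTR1 (TAZ) acting together with TEAD factors on CCN1 and CCN2.

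Arrays of 1 nM correlated with each other at 0.997 to 0.998 across the 27307 probe sets tested and DMSO arrays at 0.990 to 0.997, against 0.992 to 0.996 between the groups. A probe set, a group of probes for 1 transcript, was tested when its mean over the 29 arrays reached an intensity of 37.4, and these represented 12174 genes. Among epithelial markers, CDH1, the epithelial cadherin, had normalized intensities of 6515 ± 150 in 1 nM cultures and 6614 ± 88.9 in DMSO cultures, and EPCAM had 4001 ± 123 in 1 nM cultures and 3923 ± 63.7 in DMSO cultures (SD, n = 3 each). The keratins lay below zero in their log2 changes, with KRT5 called lower (-0.55; limma, adjusted p = 0.046) and KRT7 (-0.27), KRT8 (-0.22), KRT18 (-0.16) and KRT19 (-0.13) not called, and KRT14, a basal cell keratin, was below the level minimum in both groups. The leukocyte markers PTPRC, CD3D and LYZ, the endothelial markers PECAM1, CDH5 and VWF, and the fibroblast markers COL3A1, PDGFRA and DCN were below it as well. So were FOXJ1 and SCGB1A1, markers of differentiated airway cells. Some other markers were above the level minimum and not called. COL1A1 averaged 623 at 1 nM and 601 in DMSO, and CD14 49.4 at 1 nM and 43.9 in DMSO. Of differentiated airway cells, SFTPC averaged 428 at 1 nM and 542 in DMSO, and MUC5AC 83.9 at 1 nM and 79.8 in DMSO. Summed over each marker list, intensities per array were 840 to 924 at 1 nM and 909 to 960.4 in DMSO for 17 leukocyte genes and 660.1 to 723 at 1 nM and 724 to 761 in DMSO for 16 endothelial genes. The sums were 1714 to 1829 at 1 nM and 1685 to 1695 in DMSO for 16 fibroblast genes and 57463 to 58653 at 1 nM and 58829 to 60543 in DMSO for 32 epithelial genes. For 17 differentiated airway genes the sums were 2762 to 2895 at 1 nM and 2735 to 2790 in DMSO. The endothelial, fibroblast and epithelial lists had groups that did not overlap, and their part in the results was not tested. RNA integrity and amplification were followed by comparing control probes at the 3′ and 5′ ends of actin and GAPDH. Their mean log2 ratio, 3′ over 5′, was 1.34, 1.31 and 1.42 in the 1 nM arrays, against 1.21, 1.19 and 1.13 in the DMSO arrays. The groups did not overlap in it, with means of 1.35 ± 0.06 at 1 nM and 1.18 ± 0.04 in DMSO (exact two-sided permutation test, p = 0.1, the smallest that 3 against 3 arrays allow), and 1 nM had the highest group mean of the series.

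Against DMSO, cultures with 1 nM N-OH-PhIP differed in a small set of genes, and 12 of 30 tested immediate early genes were among those that fell. EGR1, FOS, TXNIP, EGR3 and CCN2 had the largest decreases among called probe sets with 1 gene symbol, at -1.87 to -1.15 on the log2 scale, and WAC had the largest increase among them, at 0.60. In all, 213 of 27307 probe sets passed an adjusted p of 0.05 in limma (0.78%), 56 higher (0.205%) and 157 lower (0.575%) at 1 nM. They belonged to 144 genes, of which 43 had a higher and 101 a lower probe set, and 0 had both. A change of at least 1.5-fold was seen in 47 of the called probe sets (0.172%), 2 higher (0.00732%) and 45 lower (0.165%). The largest increase was 0.61 and the largest decrease -1.87 on the log2 scale, and the median change of all genes was 0.02. All 213 called probe sets had arrays that did not overlap, as had 7168 (26.2%) of those tested. At an unadjusted p under 0.05, 3518 probe sets (12.9%) passed. Centring each array on its median changed the balance to 90 higher and 124 lower. With the 3′ to 5′ ratio as a covariate in the same limma fit, 24 probe sets were called (9 higher), although all 213 kept their direction with a median ratio of 0.93 between the changes, and the median SE was 0.110 with the covariate and 0.084 without it. Leaving out 1 array gave 50, 107 and 70 calls without 1 nM replicates 1, 2 and 3, and 155, 43 and 137 without DMSO replicates 1, 2 and 3, in fits with fewer samples.

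**Figure D1:**
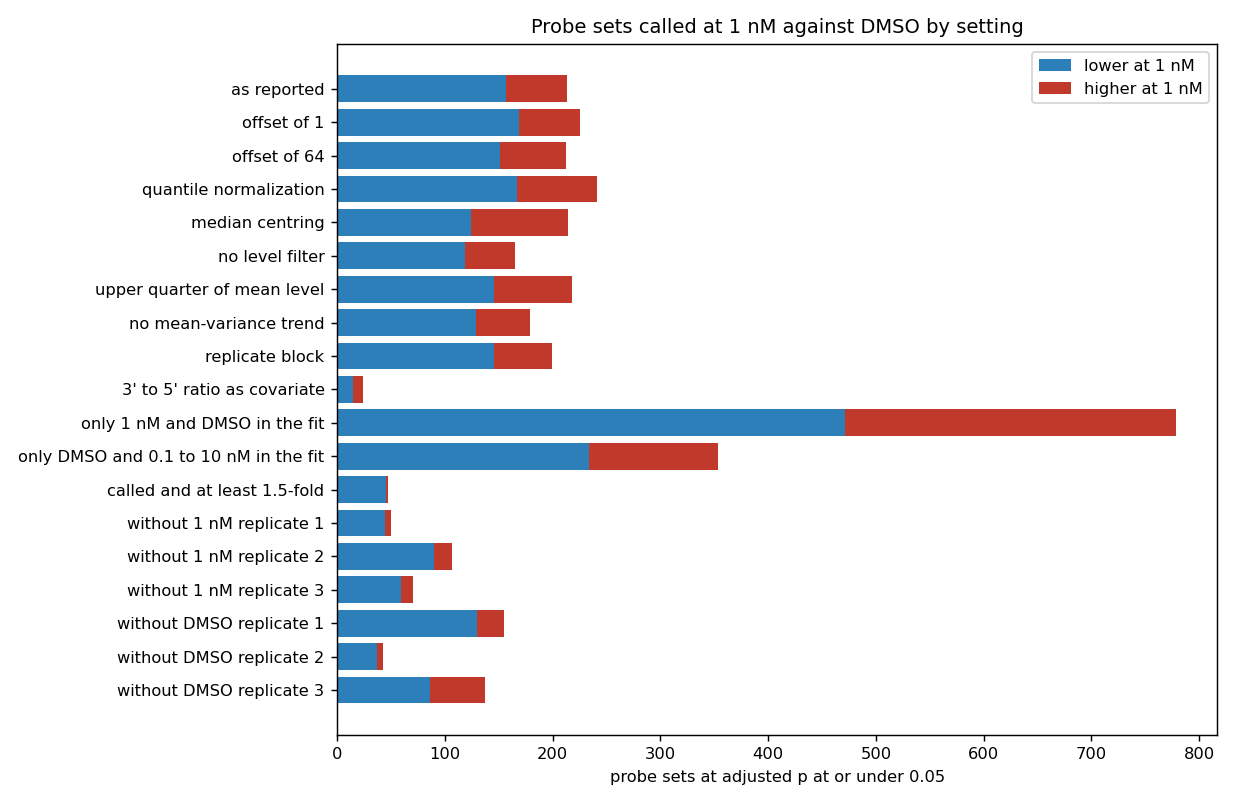
Number of probe sets at an adjusted p at or under 0.05 (limma) for 1 nM against DMSO under each setting, as bars from 0, split into probe sets lower (blue) and higher (red) at 1 nM. The count was 213 as reported, 24 with the 3′ to 5′ ratio as covariate, 43 without DMSO replicate 2 and 778 with only the 1 nM and DMSO arrays in the fit.

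EGR1, an immediate early zinc finger transcription factor on chromosome 5, had intensities of 85.3, 207 and 186 in the 1 nM arrays, against 520.2, 644 and 609 in the DMSO arrays. All 1 nM arrays lay far below the DMSO arrays and replicate 1 was the lowest. The log2 change was -1.87 ± 0.25 (SE; limma, adjusted p = 2.6e-04) in that probe set. EGR1 has 3 tested probe sets of very different brightness, and the brightest, with a mean of 8430.5 at 1 nM and 9739 in DMSO, changed by -0.21 (limma, adjusted p = 0.091) and was not called. The middle one fell by 0.46 on the log2 scale (limma, adjusted p = 0.0069), so the size of the EGR1 decrease depended on the probe set. FOS, an AP-1 subunit on chromosome 14, had intensities of 72.2, 118 and 103 at 1 nM and of 292, 334 and 380.4 in DMSO. The 1 nM arrays were all below the lowest DMSO array, and the log2 change was -1.64 ± 0.20 (limma, adjusted p = 1.3e-04). JUN, the AP-1 partner of FOS, on chromosome 1, had 1104, 1299 and 1244 at 1 nM and 1742, 2117 and 1929 in DMSO. Its groups were also apart, at -0.66 ± 0.08 (limma, adjusted p = 1.2e-04), and 4 of its 4 tested probe sets were called lower, from -0.72 to -0.45. IER2, a nuclear protein of the same class, had 2986, 3444 and 3111 at 1 nM, against 4621, 5078 and 4822 in DMSO (-0.60 ± 0.08; limma, adjusted p = 2.2e-04). EGR3, a relative of EGR1, had 26.0, 31.5 and 32.6 at 1 nM, which is below the level minimum of 37.4, and 79.0, 99.1 and 122 in DMSO, so its log2 change of -1.32 ± 0.19 depends on the offset (limma, adjusted p = 6.7e-04). RNA from whole cultures cannot tell fewer expressing cells from less RNA per cell.

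**Figure D2:**
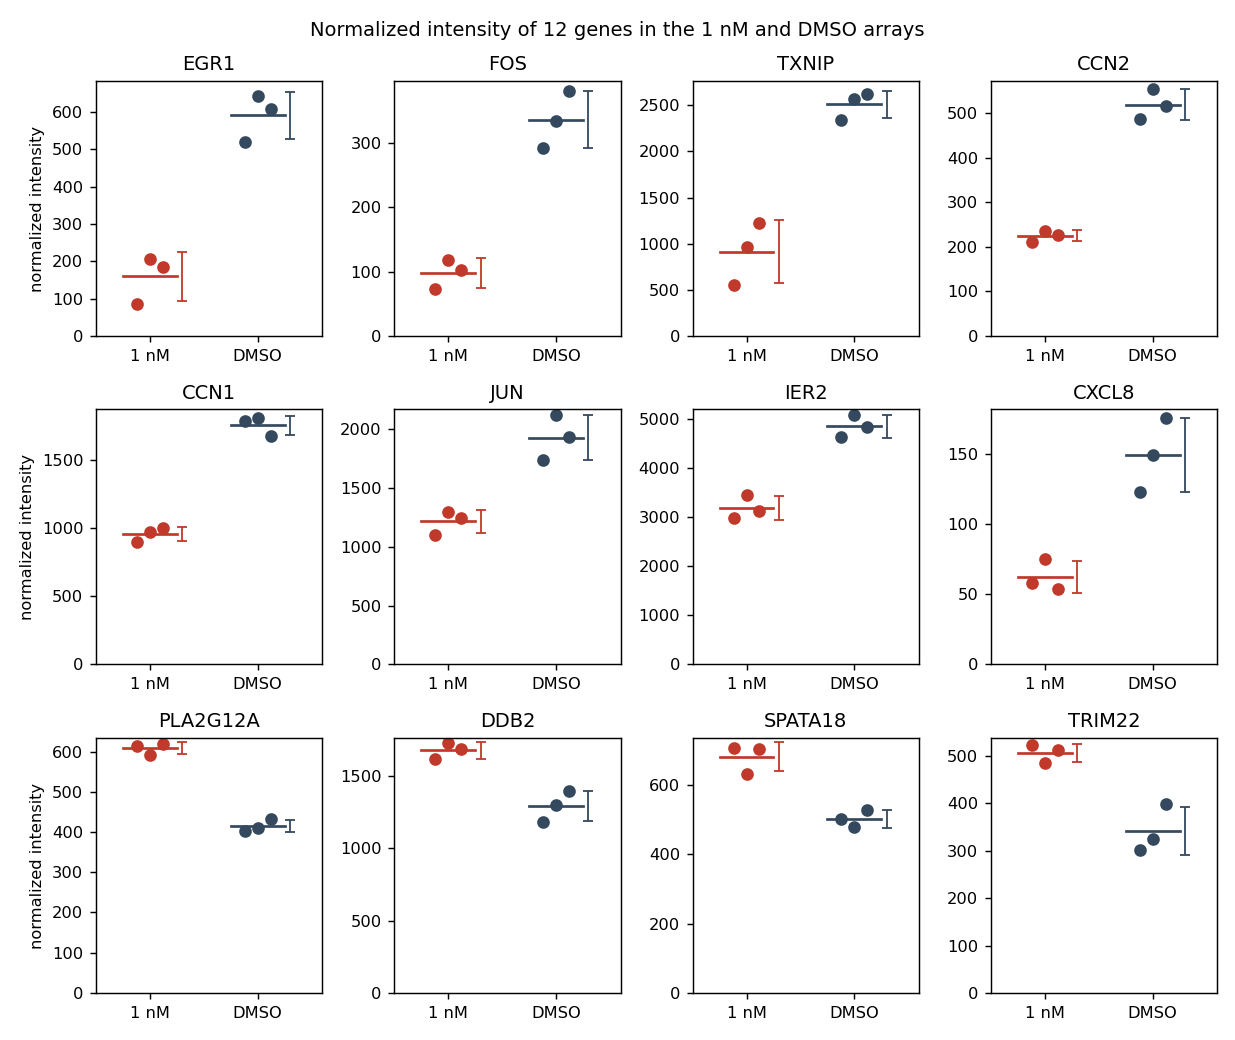
Normalized intensity (vertical axes, linear and from 0) of 12 genes in the 3 arrays of 1 nM (red) and of DMSO (dark blue), with points for arrays, horizontal lines for means and bars for the SD. All 12 were chosen from called genes, and the groups are apart in every panel, EGR1 for example at 85.3 to 207 against 520.2 to 644. The same held for all 213 called probe sets and for 26.2% of those tested, so the separation follows from the choice.

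Of the 33 immediate early genes listed, 30 were tested, 12 fell (JUN, FOS, IER2, EGR3, CCN2, KLF2, CCN1, NR4A3, ZFP36, DUSP5, KLF6 and IER3) and 0 rose. Each gene was represented by its brightest tested probe set, by which 90 of all 12174 genes (0.739%) were called, 63 (0.517%) lower and 27 (0.222%) higher. The list's median log2 change was -0.48, against 0.02 over all genes, and 29 of the 30 members were below zero. FOSL2, an AP-1 subunit, was the exception, at 0.09. Members below the DMSO mean numbered 27, 8 and 9 of 30 in DMSO replicates 1, 2 and 3 themselves. Among the members that fell, KLF2 (-0.74) and KLF6 (-0.48) are zinc finger factors and NR4A3 (-0.50) is an orphan nuclear receptor. ZFP36 (-0.48), which binds AU-rich mRNAs and promotes their decay, and DUSP5 (-0.65), a phosphatase that inactivates ERK, are feedback regulators. DUSP6 (-0.54; limma, adjusted p = 0.054), KLF10 (-0.53; limma, adjusted p = 0.069) and FOSB (-0.60; limma, adjusted p = 0.089) missed the threshold, although another DUSP6 probe set fell by 0.64 on the log2 scale (limma, adjusted p = 0.046). MYC was at -0.48 (limma, adjusted p = 0.43). With the 3′ to 5′ ratio as covariate 3 of the 30 were called, while the median was -0.38. Leaving out 1 array at a time gave 5 called members without DMSO replicate 2, 6 without 1 nM replicate 1, 7 without 1 nM replicate 3 and 8 to 10 without each of the others. The median ranged from -0.49 to -0.38 over the 17 alternatives. Further feedback inhibitors of ERK signalling, chosen after their values were seen, were SPRY4, with 452, 586 and 576 at 1 nM and 826, 891 and 952 in DMSO (-0.72 ± 0.13; limma, adjusted p = 0.0053), and SPRY1 (-0.53 ± 0.12; limma, adjusted p = 0.033).

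**Figure D3:**
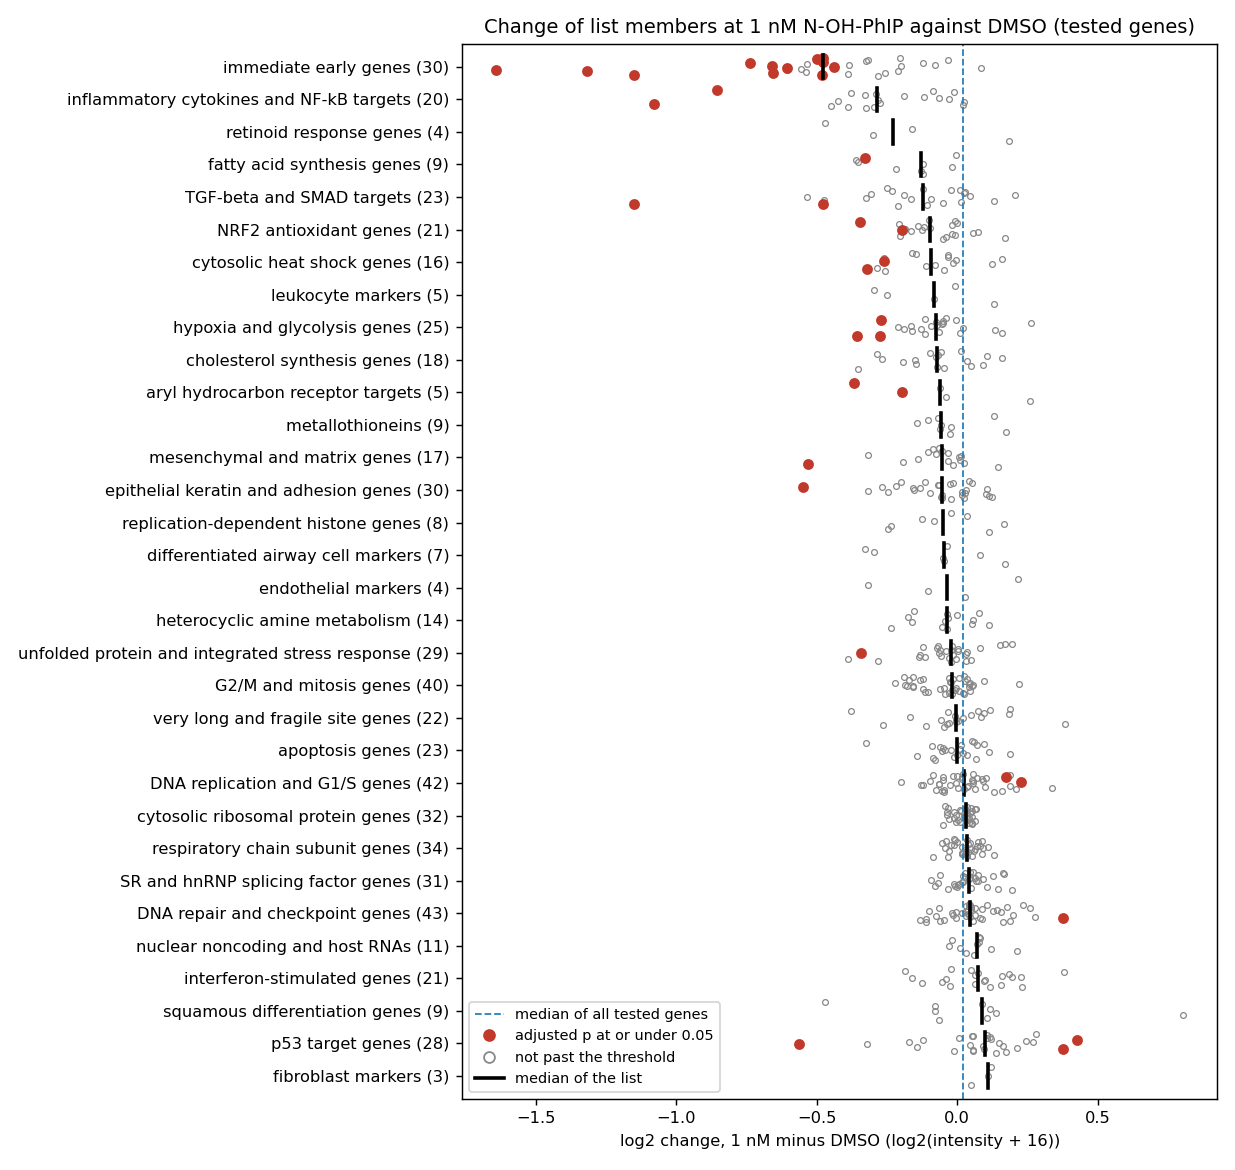
Log2 change at 1 nM minus DMSO (horizontal axis) of the tested members of 32 gene lists, with the number tested in parentheses, ordered by list median from lowest at the top. Filled red points passed an adjusted p of 0.05 (limma), open points did not, black bars are list medians and the dashed line is the median of all genes (0.02). The immediate early list stands lowest, with a median of -0.48 and 12 filled points.

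CCN1 and CCN2 encode secreted matricellular proteins and are standard targets of YAP and WWTR1 with TEAD factors. CCN2, on chromosome 6, had 212, 236 and 227 at 1 nM, against 486, 555 and 516 in DMSO, a log2 change of -1.15 ± 0.18 (limma, adjusted p = 0.0010). CCN1, on chromosome 1, had 902, 971 and 1003 at 1 nM, against 1788, 1809 and 1680.2 in DMSO, a log2 change of -0.87 ± 0.11 (limma, adjusted p = 1.9e-04). Neither gene's groups overlapped, and the other tested probe set of CCN1 also fell, by 0.48 on the log2 scale. WWTR1, the coactivator TAZ itself, on chromosome 3, had 145, 164 and 159 at 1 nM and 281, 306 and 278 in DMSO, with all 1 nM arrays below all DMSO arrays (-0.82 ± 0.10; limma, adjusted p = 1.4e-04). That was 1 of 3 tested WWTR1 probe sets, the others not being called and reaching up to 0.04. LATS2, a kinase that phosphorylates YAP and WWTR1 and is itself one of their targets, had 45.9, 68.5 and 74.96 at 1 nM and 112, 136 and 127 in DMSO (-0.85 ± 0.20; limma, adjusted p = 0.044). Only 1 of 3 LATS2 probe sets was called, the changes ranging from -0.85 to -0.05. The LATS2 call was lost in all 6 fits that left out 1 array, with adjusted p of 0.065 to 0.293. RHOB, a small GTPase of the actin cytoskeleton that was chosen after its values were seen, had 1851, 2019.9 and 2096 at 1 nM and 2972, 3607 and 3113 in DMSO (-0.69 ± 0.09; limma, adjusted p = 2.4e-04), while its second, dim probe set was at -0.15 and not called.

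TXNIP, on chromosome 1, an arrestin-domain protein that inhibits thioredoxin and glucose uptake, had 550.1, 962 and 1223 at 1 nM and 2344, 2569 and 2617 in DMSO. The 1 nM arrays differed from each other more than the DMSO arrays did, and all were below them. The log2 change was -1.52 ± 0.24 (limma, adjusted p = 0.0010), and 3 of 3 tested probe sets fell, from -1.52 to -1.27. ARRDC4, the arrestin-domain relative of TXNIP with a similar role in glucose uptake, on chromosome 15, was chosen after its values were seen. It had 345, 471 and 542 at 1 nM and 766, 744 and 882 in DMSO (-0.81 ± 0.17; limma, adjusted p = 0.016). In both genes replicate 1 was the lowest of the 1 nM arrays.

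Promoters of genes that fell together were searched for 4 motifs on both strands, from 250 bases before to 50 after the gene start: the CArG box bound by SRF, GGAATG bound by TEAD factors, CACGTG of E-boxes and TGACGTCA bound by CREB. Sequences are those of RefSeq on GRCh38.p14, and of the 35116 promoters given there 1.29% held a CArG box, 14.0% GGAATG, 7.26% CACGTG and 1.85% TGACGTCA. The 3 sequences shown are those of the 6 searched that held a match, with the matched letters in capitals, and no match overlapped another. EGR1 (chr5:138465229-138465528, plus strand) held 2 CArG boxes, at -105 and -83 relative to the gene start. CCN2 (chr6:131951323-131951622, minus strand) held GGAATG 3 times, at -169, -104 and -95. ARRDC4 (chr15:97960453-97960752, plus strand) held CACGTG once, at -210. The FOS, JUN and TXNIP windows held 0 matches of these letters, TXNIP in the first of its 2 listed starts. A match describes the letters of the window and was not tested as a site.
EGR1: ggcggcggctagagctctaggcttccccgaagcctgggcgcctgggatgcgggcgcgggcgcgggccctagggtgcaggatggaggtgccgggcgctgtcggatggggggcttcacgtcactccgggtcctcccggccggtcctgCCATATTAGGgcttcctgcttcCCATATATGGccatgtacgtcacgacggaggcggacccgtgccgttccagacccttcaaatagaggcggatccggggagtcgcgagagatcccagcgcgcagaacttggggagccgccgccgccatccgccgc
CCN2: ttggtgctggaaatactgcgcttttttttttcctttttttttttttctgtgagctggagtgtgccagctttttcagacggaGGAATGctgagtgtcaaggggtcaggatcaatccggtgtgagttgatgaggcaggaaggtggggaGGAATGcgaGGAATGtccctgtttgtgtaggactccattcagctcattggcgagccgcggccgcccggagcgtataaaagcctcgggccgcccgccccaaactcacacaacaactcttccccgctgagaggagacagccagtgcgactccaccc
ARRDC4: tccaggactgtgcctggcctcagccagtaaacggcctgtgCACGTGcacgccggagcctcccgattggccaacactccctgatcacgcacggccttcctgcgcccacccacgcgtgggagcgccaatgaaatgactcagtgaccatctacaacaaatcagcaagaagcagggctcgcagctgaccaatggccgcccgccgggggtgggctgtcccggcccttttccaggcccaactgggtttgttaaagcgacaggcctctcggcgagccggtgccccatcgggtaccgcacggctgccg

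Of the 27 inflammatory cytokine and NF-kB target genes listed, 20 were tested, 2 fell and 0 rose, with a median of -0.29 and 18 below zero. By the brightest probe set, 0.517% of all genes were lower. Relative to the DMSO mean, the list's median was -0.38, -0.16 and -0.27 in the 1 nM arrays and -0.21, 0.10 and 0.09 in the DMSO arrays. The groups thus overlapped, and DMSO replicate 1 also had 18 of the 20 members below that mean. CXCL8, the neutrophil chemokine interleukin 8, had 57.8, 75.1 and 53.5 at 1 nM and 123, 149 and 175 in DMSO (-1.08 ± 0.22; limma, adjusted p = 0.015). TNFAIP3, a ubiquitin-editing inhibitor of NF-kB, had 51.0, 67.2 and 58.8 at 1 nM and 96.3, 209 and 126 in DMSO (-1.04 ± 0.20; limma, adjusted p = 0.011). In both genes the groups were apart and the DMSO arrays were the more variable. The second TNFAIP3 probe set fell as well, by 0.85 on the log2 scale (limma, adjusted p = 0.0023). The CXCL8 call was lost without 4 of the 6 arrays taken 1 at a time, with an adjusted p of up to 0.101 without 1 nM replicate 3. IL1A (-0.42; limma, adjusted p = 0.061) and NFKBIA (-0.33; limma, adjusted p = 0.17) did not pass. IL6 was at -0.03. The first TNFAIP3 probe set lost its call in 3 of the 6. With the 3′ to 5′ ratio as covariate 0 members were called, CXCL8 having an adjusted p of 0.23 in limma, and the list's median was -0.14.

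Other genes that fell were scattered over the lists, whose counts stand beside 0.517% of all genes lower and 0.222% higher by the brightest probe set. Heat shock genes had 2 of 16 members lower and 0 higher: DNAJA1, a co-chaperone of HSP70 (-0.32 ± 0.05; limma, adjusted p = 0.0026, with its other probe set at 0.03), and HSP90AB1, the constitutive HSP90 (-0.26 ± 0.05; limma, adjusted p = 0.010), the second in 3 of 3 probe sets. HERPUD1, a component of endoplasmic reticulum degradation, was the 1 of 29 unfolded protein and stress response genes to fall, with 2440.2, 2452 and 2383 at 1 nM and 2881, 3216 and 3146 in DMSO (-0.34 ± 0.05; limma, adjusted p = 8.2e-04). SCD, the stearoyl-CoA desaturase, fell in 3 of 4 probe sets, from -0.65 to -0.33. The brightest probe sets of HSP90AB1 and SCD lost their calls with the 3′ to 5′ ratio as covariate. They also lost them without 1 nM replicate 1 and without DMSO replicate 2. Hypoxia and glycolysis genes had 3 of 25 lower and 0 higher, ADM, ALDOA and PKM, at -0.36 to -0.27, and all 3 calls were lost with the covariate, without a level filter and without any 1 of 1 nM replicates 1 and 3 and DMSO replicates 2 and 3. BMP2, a ligand of the TGF-beta family (-0.48), KRT5, a basal keratin (-0.55), and CDH2, N-cadherin (-0.53), also fell. KLHL24, an adaptor of a ubiquitin ligase, had 121, 143 and 158 at 1 nM and 308, 337 and 259 in DMSO (-1.02 ± 0.21; limma, adjusted p = 0.018) in 1 of 4 probe sets, the highest being at 0.10. TENT5C, a poly(A) polymerase, was at -0.82 (limma, adjusted p = 0.048). The calls of BMP2, KRT5, CDH2, KLHL24 and TENT5C were lost with the covariate. Leaving out 1 array lost that of BMP2 in all 6 fits, those of KRT5 and TENT5C in 5, that of KLHL24 in 4 and that of CDH2 in 3.

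Genes that rose did so by less than 1.5-fold except in 2 probe sets. The increase with the smallest adjusted p was that of PLA2G12A, a secreted phospholipase A2, on chromosome 4, with 614, 591 and 618 at 1 nM and 402, 409.9 and 432 in DMSO. Its arrays were tightly grouped and apart, at 0.54 ± 0.07 (limma, adjusted p = 1.9e-04), in 1 of 4 tested probe sets, of which the lowest was at -0.01. WAC, an adaptor in histone H2B ubiquitination, had 223, 206 and 223 at 1 nM and 115, 151 and 151 in DMSO (0.60 ± 0.14; limma, adjusted p = 0.038) in 1 of 5 probe sets, 2 of which lay below zero. TRIM22, an antiviral ubiquitin ligase that interferon and p53 induce, had 523, 485 and 512 at 1 nM and 302, 324 and 399 in DMSO (0.55 ± 0.12; limma, adjusted p = 0.025). The remaining members of the 12 with the largest increases were KIAA0232 (0.55), PPP3CB-AS1 (0.54), RPL7AP10 (0.51), UQCC6, a complex III assembly factor (0.45), MMP19, a metalloproteinase (0.45), LEPROT (0.43), RAB27A, a GTPase of exocytosis (0.43), SPATA18 (0.43) and IDI2, an isopentenyl diphosphate isomerase (0.41). Of 3 LEPROT probe sets 1 was called and 1 was below zero. RPL7AP10 is a ribosomal protein pseudogene and its probe set may also read its parent gene. Of these 12 genes PLA2G12A alone was called in all 6 fits that left out 1 array. With the 3′ to 5′ ratio as covariate TRIM22 (0.78), KIAA0232 (0.69), UQCC6 (0.67), LEPROT (0.61) and PLA2G12A (0.47) were still called, and the other 7 were not.

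The study asked at which dose a transcriptional response begins, and p53 targets are a standard readout of DNA damage. Of 32 genes listed, 28 were tested, 2 rose, 1 fell and 25 did not pass, with a median of 0.10 and 22 above zero. By the brightest probe set, 0.222% of all genes were higher and 0.517% lower. Relative to the DMSO mean, the list's median was 0.08, 0.14 and 0.06 in the 1 nM arrays, with 21, 22 and 19 members above. It was -0.04, -0.03 and 0.07 in the DMSO arrays, with 6, 10 and 24 above, so the groups overlapped. DDB2, which recognises damaged DNA in nucleotide excision repair, had 1614, 1727 and 1688 at 1 nM and 1183, 1298 and 1392 in DMSO (0.38 ± 0.07; limma, adjusted p = 0.012). SPATA18, a mitochondrial quality control protein, had 707, 633 and 705 at 1 nM and 501, 478 and 529 in DMSO (0.43 ± 0.09; limma, adjusted p = 0.023). That was 1 of 2 tested SPATA18 probe sets, the other being at 0.10 and not called. Both genes' groups were apart, and both calls were lost with the covariate and without 4 of the 6 arrays. PLK2, a polo-like kinase, fell, with 245, 291 and 274 at 1 nM and 380.0, 443 and 394 in DMSO (-0.56 ± 0.13; limma, adjusted p = 0.033), a call lost in all 6 fits that left out 1 array, with the covariate and without a level filter. CDKN1A, the cell cycle inhibitor p21, averaged 4841 ± 163 at 1 nM and 4663 ± 229.5 in DMSO (SD, n = 3 each), a log2 change of 0.05 ± 0.05 (limma, adjusted p = 0.72). MDM2, the ubiquitin ligase of p53, was at 0.16 ± 0.05 (limma, adjusted p = 0.15), and GDF15, a stress cytokine, at 0.09 ± 0.07 (limma, adjusted p = 0.63). RPS27L, a p53-responsive ribosomal protein relative chosen after its values were seen, rose in 2 of 3 probe sets, both by 0.20. Of the 43 DNA repair and checkpoint genes tested DDB2 was the only one called, and of 42 replication genes RFC5, a clamp loader subunit (0.17), and ORC6, of the origin recognition complex (0.23), rose. Both of these calls were lost in all 6 fits that left out 1 array, in which 0 replication genes were higher, and with the covariate, the replicate block, no level filter and no trend. Apoptosis (0 of 23) and mitosis (0 of 40) genes had no call by the brightest probe set, but MCL1, an antiapoptotic BCL2 relative, fell in 2 of its 5 probe sets, both by 0.68 on the log2 scale.

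Enzymes that activate or clear heterocyclic amines had 0 of 14 tested members called, with a median of -0.04. CYP1A1, which oxidises PhIP, had 30.2, 26.0 and 32.9 at 1 nM and 20.3, 32.6 and 30.9 in DMSO, below the level minimum and untested. CYP1B1, a related oxidase, had 201, 188 and 220.1 at 1 nM and 172, 139 and 192 in DMSO, with overlapping groups (0.26 ± 0.11; limma, adjusted p = 0.33). Of the 5 aryl hydrocarbon receptor targets tested, 2 fell and 0 rose. TIPARP, a feedback repressor of that receptor, had 746, 759.8 and 754 at 1 nM and 906, 1012 and 1015 in DMSO (-0.37 ± 0.08; limma, adjusted p = 0.022). NQO1, a quinone reductase that both this receptor and NRF2 induce, had 2621, 2542 and 2531 at 1 nM and 2833, 2925 and 3063 in DMSO (-0.20 ± 0.04; limma, adjusted p = 0.031) in 1 of 3 probe sets. Both calls were lost in 5 of the 6 fits that left out 1 array and with the covariate. Among 21 NRF2 genes, TKT, transketolase (-0.35 ± 0.07; limma, adjusted p = 0.021), fell as well as NQO1, a call lost in 4 of those 6 fits, and HMOX1, heme oxygenase 1, was at -0.16 ± 0.14 (limma, adjusted p = 0.68). Metallothionein genes had 0 of 9 called by the brightest probe set, interferon-stimulated genes 0 of 21, ribosomal protein genes 0 of 32 and respiratory chain genes 0 of 34. Of all genes 0.739% were called in this way, 0.517% lower and 0.222% higher, so counts of 0 in lists of this size say little. GBP1, which interferon induces, fell in 2 of its 3 tested probe sets.

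Compared with its neighbours in the dose series, 1 nM differed in few called probe sets from 0.1, 0.5 and 5 nM and in many from 10 nM. Against 0.1 nM, 5 probe sets (0.0183%) were called in limma, with CD47, RDH13 and INTS6 among the 4 higher (0.0146%) and CFL1, the actin-severing protein cofilin, as the 1 lower (0.00366%). At least 1.5-fold was reached by 1 of them (0.00366%), a higher one, and 2099 passed an unadjusted p of 0.05 (7.69%). The count was 0 with the replicate block and with the covariate, and 0 or 1 leaving out 1 array. Against 0.5 nM 0 were called by limma (2219 at an unadjusted p under 0.05, 8.13%), and against 5 nM 0 (1527, 5.59%). A p that misses the threshold does not show that these doses acted alike. Against 10 nM, 1047 probe sets were called (3.83%), 296 higher (1.08%) and 751 lower (2.75%) at 1 nM. Of these 219 (0.802%) reached 1.5-fold, 60 higher (0.22%) and 159 lower (0.582%), and the arrays of 1046 (99.9%) did not overlap, against 33.4% of all tested. These comparisons share the 1 nM arrays with each other and with the comparison with DMSO, so their errors are not independent. Without 1 nM replicate 1 the count against 10 nM was 257, without 10 nM replicate 2 it was 328 and without 1 nM replicate 3 it was 399.

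EGR1 was followed across the dose series by its dimmest tested probe set. Its levels were 520.2 to 644 (DMSO), 153 to 192 (0.1 nM), 201 and 366 (0.5 nM), 85.3 to 207 (1 nM), 109 to 190.1 (5 nM) and 574 to 595 (10 nM). Higher doses had 332 to 507 (50 nM), 293 to 537 (100 nM), 410.4 to 636 (500 nM) and 607 to 747 (1000 nM). The levels of 0.1, 1 and 5 nM overlapped one another, and those of DMSO and 10 nM overlapped. On the log2 scale this EGR1 probe set at 1 nM differed by -0.18 ± 0.25 from 0.1 nM (limma, adjusted p = 0.94), by 0.04 ± 0.25 from 5 nM (limma, adjusted p = 0.98) and by -1.86 ± 0.25 from 10 nM (limma, adjusted p = 2.1e-04). The middle EGR1 probe set differed from 10 nM by -0.45 (limma, adjusted p = 0.0034). The brightest differed by -0.20 (limma, adjusted p = 0.053) and was not called. FOS differed by 0.06 ± 0.20 from 0.1 nM (limma, adjusted p = 0.98) and by -1.53 ± 0.20 from 10 nM (limma, adjusted p = 1.4e-04). Against 10 nM, 20 of the 30 immediate early genes were lower and 0 higher at 1 nM, with a median of -0.54, and 14 of 20 inflammatory genes were lower, with a median of -0.49, where 2.78% of all genes were lower and 1.04% higher. The immediate early list's median was -0.01 against 0.1 nM, -0.31 against 0.5 nM and 0.00 against 5 nM. The 0.5 nM group rests on 2 arrays. The labels give no date or batch for any culture.

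**Figure D4:**
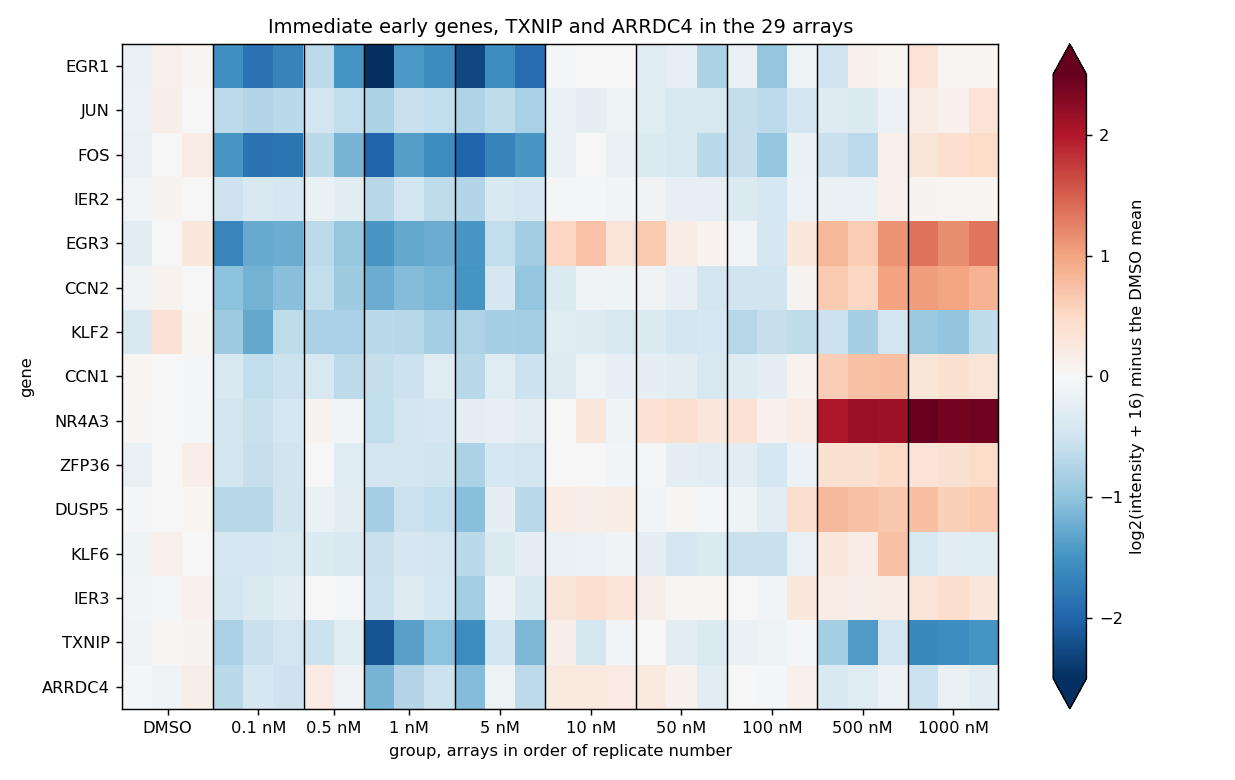
Log2(intensity + 16) minus the DMSO mean (colour, blue lower and red higher) of EGR1, the 12 immediate early genes that fell at 1 nM, TXNIP and ARRDC4 (down the page) in the 29 arrays, ordered by group from DMSO to 1000 nM. EGR1 and FOS are blue in the arrays of 0.1, 0.5, 1 and 5 nM and near white at 10 nM, where EGR1 was at 574 to 595 against 520.2 to 644 in DMSO. EGR1 is shown by its dimmest tested probe set.

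Mean TXNIP was 2510.2 ± 146 with DMSO, 1636 ± 195 with 0.1 nM, 1884 ± 221 with 0.5 nM, 912 ± 339 with 1 nM, 1264 ± 492 with 5 nM and 2336 ± 471 with 10 nM (SD, n = 3, and n = 2 for 0.5 nM). It was lower again at 500 nM (1383 ± 436) and 1000 nM (846 ± 41.9). Mean WWTR1 was 288 ± 15.4 with DMSO, 198 ± 14.7 with 0.1 nM, 215 ± 24.0 with 0.5 nM, 156 ± 10.0 with 1 nM, 184 ± 8.49 with 5 nM and 274 ± 28.8 with 10 nM, and its 1 nM arrays lay below those of every other group. DDB2 was at 1183 to 1392 (DMSO), 1432 to 1523 (0.1 nM), 1369 to 1437 (0.5 nM), 1614 to 1727 (1 nM), 1438 to 1608 (5 nM) and 1337 to 1461 (10 nM), so its 1 nM arrays were above those of all other groups up to 10 nM. At 100 nM DDB2 was at 1990.0 to 2189 and at 500 nM at 2752 to 3218. CDKN1A averaged 4841 ± 163 at 1 nM and 5105 ± 278 at 10 nM, and 7967 ± 536 at 500 nM. Mean PLA2G12A was 415 ± 15.6 with DMSO, 582 ± 11.7 with 0.1 nM, 593 ± 20.9 with 0.5 nM, 608 ± 14.9 with 1 nM, 549 ± 36.5 with 5 nM and 517 ± 26.3 with 10 nM.

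**Figure D5:**
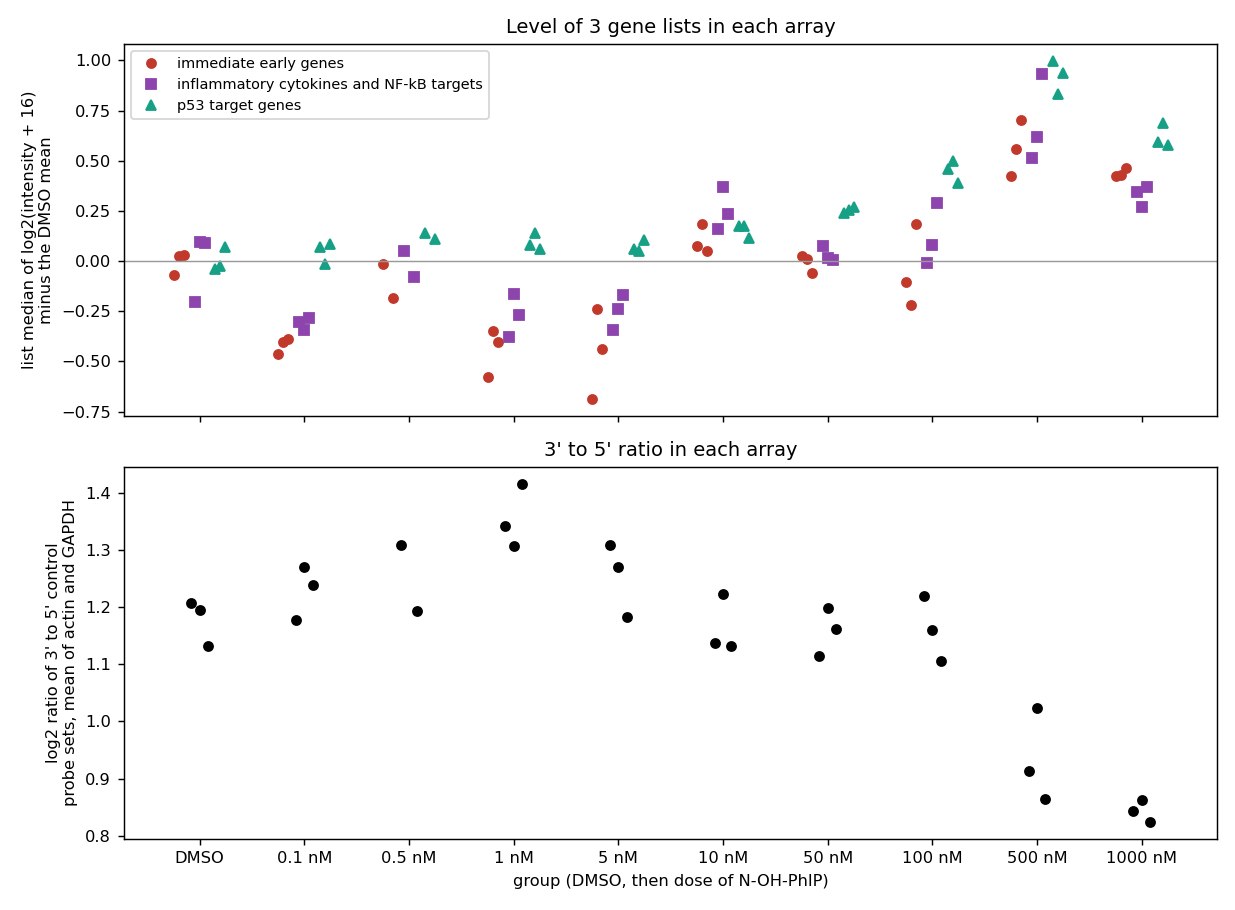
Top, median over the tested members of 3 gene lists of log2(intensity + 16) minus the DMSO mean in each of the 29 arrays, by group. Bottom, mean log2 ratio, 3′ over 5′, of the actin and GAPDH controls in the same arrays; the 1 nM arrays hold 1.31 to 1.42, against 1.13 to 1.21 in DMSO, and immediate early medians of -0.58 to -0.35, against -0.07 to 0.03 in DMSO.

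Array by array, the immediate early list's median stood at -0.58, -0.35 and -0.40 in the 1 nM arrays and at -0.07, 0.03 and 0.03 in the DMSO arrays, relative to the DMSO mean. All 30 members lay below the DMSO mean in 1 nM replicate 1, 29 in replicate 2 and 28 in replicate 3. In DMSO replicates 1, 2 and 3 themselves 27, 8 and 9 did, so a count near 30 also occurred in a control array. At 0.1 nM 30, 28 and 29 members lay below it, and at 5 nM 30, 28 and 28. At 0.1 nM the list's median was -0.46 to -0.39, where the 3′ to 5′ ratio averaged 1.23 ± 0.05, and at 5 nM it was -0.69 to -0.24, with a ratio of 1.25 ± 0.06. At 10 nM it was 0.05 to 0.18, with a ratio of 1.16 ± 0.05. The part of the 3′ to 5′ ratio in the list's level beyond the covariate fit was not tested. Of the 45 named probe sets that were called, 11 were called with the covariate and 13 in all 6 fits that left out 1 array. With the 1.5-fold minimum left aside, EGR1, FOS, JUN, CCN1, WWTR1 and PLA2G12A were called under every alternative in which they were tested. Likewise leaving it aside, CCN2, EGR3, IER2, TXNIP, HERPUD1, DNAJA1 and the brighter TNFAIP3 probe set lost the call with the covariate alone. Their adjusted p with the covariate was 0.065 to 0.105 (limma). PLA2G12A, HERPUD1 and DNAJA1 changed by less than 1.5-fold.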

How the data were processed

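RNA of 29 BEAS-2B cultures was measured on Affymetrix 3′ arrays after NuGEN Ovation amplification, per the labels. Signals came from GCOS, per the submitters' processing notes, with no version given. Each deposited value is the linear intensity of a probe set, which the authors had normalized by a method not given in the sources used here, so changes are relative to that scaling. Of 54675 probe sets 62 were controls. Of the others, 41091 carried 1 gene symbol in the array's annotation, 1801 several and 11721 none, and no gene was named from several. Columns of samples other than the 29 numbered 0.

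Values were log2(intensity + 16), which shrinks changes of dim probe sets. Non-control probe sets at or above the median of their mean log2 level, 5.74, were tested, 27307 in all. A limma fit (limma 3.58.1, R 4.3.3) held a mean for each of the 10 groups, with empirical Bayes moderation, a mean-variance trend and 19 residual degrees of freedom. P-values were two-sided and adjusted with Benjamini-Hochberg over all tested probe sets at a threshold of 0.05. The fit was checked on simulated data. Depth does not apply to arrays, whose number limits the precision. Figures were drawn with matplotlib 3.10.9.

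Named genes were the 12 that rose most and the 12 that fell most, taking called probe sets of 1 symbol whose arrays did not overlap, up to 4 called members of each of 32 lists by p or the 2 of smallest p where none was called, 7 genes always (CYP1A1, CYP1B1, CDKN1A, GDF15, HMOX1, MDM2 and NQO1), and 3 higher and 3 lower genes of each comparison with another dose. A gene on several lists counts in each. The members, lists and rules were chosen with earlier results of these data known, and genes outside the rule, among them further members of lists, were chosen after their values were seen. Alternatives were offsets of 1 and 64, quantile normalization, median centring, other level filters, no trend, a replicate block, the 3′ to 5′ ratio as covariate, fewer groups in the fit, a minimum of 1.5-fold and each array left out.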

Additional observations from a re-analysis of the deposited data

How the results depend on the processing

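The comparison of 1 nM with DMSO called 213 probe sets, and 24 with the 3′ to 5′ ratio as covariate, 778 with only 1 nM and DMSO in the fit, 353 with only DMSO and 0.1 to 10 nM, and 47 at 1.5-fold or more. Leaving out 1 array gave 43 (DMSO replicate 2) to 155 (DMSO replicate 1), with 50, 107 and 70 without 1 nM replicates 1, 2 and 3 and 137 without DMSO replicate 3. Offsets, quantile normalization, median centring, level filters and no trend gave 165 to 241. Immediate early members lower, 12, were 3 with the covariate, 20 with only 1 nM and DMSO, and 5 to 10 leaving out 1 array. Hypoxia members lower, 3, were 0 with the covariate or no level filter, 1 with median centring or no trend, and 0 to 2 leaving out 1 array. Against 0.1 nM the count of 5 was 3 with an offset of 64, a higher level filter or only DMSO to 10 nM, 0 with the covariate, 1 at 1.5-fold, and 0 to 1 leaving out 1 array. Against 0.5 nM the count of 0 was 5 with an offset of 1 or median centring, 3 with quantile normalization or the higher level filter, 9 with only DMSO to 10 nM, and 0 to 4 leaving out 1 array (3 without 1 nM replicate 2, 4 without 0.5 nM replicate 3). Against 5 nM every setting run gave 0. Against 10 nM the count of 1047 was 657 with no level filter, 1674 with only DMSO to 10 nM, 219 at 1.5-fold, and 257 (1 nM replicate 1) to 718 (1 nM replicate 2) leaving out 1 array, with 399 without 1 nM replicate 3 and 626, 328 and 685 without 10 nM replicates 1, 2 and 3. Fits that leave out an array hold fewer samples, and the cause of the other changes was not tested.

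With the replicate number as a block, 199 probe sets were called against DMSO, 1081 against 10 nM and 0 against 0.1 nM. Deviations of same-numbered 1 nM and DMSO arrays correlated at 0.21, 0.15 and -0.10, so the numbers were not taken as pairs. Of 45 called named probe sets 0 changed direction in any alternative. Of those not called, CDKN1A was at -0.0074 with the covariate, S100A4 ran from -0.081 to 0.27, INTS6 from -0.053 to 0.017, AOPEP from -0.095 to 0.39 and LINC01410 from -0.0066 to 0.46 leaving out 1 array.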

Other observations

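S100A8, a calcium-binding protein of inflamed epithelium and myeloid cells, had intensities of 257, 236 and 224 at 1 nM and 123, 127 and 141 in DMSO, which do not overlap, but its log2 change of 0.80 ± 0.22 did not pass (limma, adjusted p = 0.094). CD44, the hyaluronan receptor, fell in 5 of 9 tested probe sets. GBP1, an interferon-induced GTPase, fell in 2 of 3, with 69.7, 62.6 and 64.7 at 1 nM and 103, 106 and 124 in DMSO in the one of smallest p (-0.64 ± 0.10; limma, adjusted p = 0.0010). HES1, a Notch target, had 350.3, 434 and 397 at 1 nM and 497, 657 and 638 in DMSO (-0.58 ± 0.14; limma, adjusted p = 0.048). That was 1 of 2 tested HES1 probe sets, the other being at -0.34 (limma, adjusted p = 0.32) and not called. These genes were chosen after their values were seen. Of probe sets without a gene symbol 23 of 3040 (0.757%) were called, and of those with 1 symbol 173 of 23147 (0.747%). In 4 equal classes of mean level, lowest to highest, 0.176%, 0.674%, 0.937% and 1.33% were called.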
